A study of Mus musculus with 2 samples.

Results

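DNA methylation was examined at the genes of the olfactory, vomeronasal and trace amine receptors of the mouse in 2 haploid embryonic stem cell lines, A129-2 with a 129Sv background and AOS-14 with a C57BL/6 background. The members were CpGs that lay inside an autosomal RefSeq gene whose symbol starts with Olfr, Vmn1r, Vmn2r or Taar, or within 10 kb of one, and that had at least 10 reads in each library. This gave 5851 CpGs of 1030368 compared in all (0.568%). They lay near 932 of 2059 such genes, and the other 1127 genes had no compared CpG within 10 kb. The 2059 genes comprise 1420 Olfr, 372 Vmn1r, 251 Vmn2r and 16 Taar genes, and 586 of them are annotated as something other than protein coding, mostly pseudogenes. Each line was represented by 1 library of genomic DNA, so line, strain and library cannot be told apart. The tests below therefore speak of these libraries' reads, not of the strains. Per the labels, the cells came from AG-haploid embryos and were sorted. The protocols describe bisulfite sequencing of captured regions, whereas the series title names reduced representation sequencing, which cuts DNA at CCGG.

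Olfactory receptors (Olfr) and most trace amine-associated receptors (Taar) are G protein-coupled receptors of the nose. The vomeronasal receptors Vmn1r and Vmn2r sit in a separate organ that detects pheromones and other signals between animals. Vmn2r receptors carry a long extracellular ligand-binding part and have several coding exons, whereas the coding sequence of the other families usually lies in a single exon. The genes stand in large tandem clusters with many pseudogenes, their promoters are poor in CpGs, and a sensory neuron typically expresses 1 receptor gene from 1 allele. Embryonic stem cells are not a tissue in which these receptors act. No RNA was measured here, so the values say nothing about expression. The labelled cell type cannot be checked by RNA either. All 13 listed markers of stem cells, fibroblasts and olfactory neurons were lower in A129-2, as were 31061 of 32022 tested genes outside the receptor families. Low regions were found in more than one class, among them the stem cell gene Sox2 (2.74% in A129-2, 3.69% in AOS-14) and the mesenchymal gene Twist1 (4.29% in A129-2, 4.97% in AOS-14). The stem cell gene Nanog had 9.62% in A129-2 and 12.9% in AOS-14. The Zfp42 region had 11.1% in A129-2 and 30.7% in AOS-14.

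Receptor gene starts held few CGs and were rarely measured. RefSeq promoter windows of 300 bases (250 before and 50 after the annotated start, GRCm38.p6, the assembly of mm10) were at hand for 1271 of the 2059 genes, as 1276 windows. They held 1.35 CG dinucleotides on average, against 12.4 over all 32851 promoter windows. No CG at all was present in 31.1% of receptor windows and in 5.43% of all windows. CCGG occurred in 6.03% of receptor windows and in 52.8% of all windows. Only 7 receptor windows (0.549%) contained a compared CpG, while 34.0% of all windows did. Each of the 142338 compared CpGs that fell in any promoter window lay on a CG of the RefSeq sequence, which checks the coordinates. The annotated start need not be the start of transcription. In the windows of Olfr506, Olfr322 and Vmn1r204 printed below, the bases after it begin with ATG, as a coding sequence does. Such a window holds sequence before and after an ATG and may not be the promoter. How many receptor windows are of this kind was not counted.

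The receptor windows with the most CGs (Vmn2r29, Olfr212, Olfr750) and the one whose single compared CpG was the most methylated (Olfr506) are printed below, followed by those of Olfr322 and Vmn1r204, a pair with some of the largest differences between the lines in their flanks. Each runs 5′ to 3′ on the strand of the gene, and capitals mark CG.
Vmn2r29, chr7:7278240-7278539, minus strand: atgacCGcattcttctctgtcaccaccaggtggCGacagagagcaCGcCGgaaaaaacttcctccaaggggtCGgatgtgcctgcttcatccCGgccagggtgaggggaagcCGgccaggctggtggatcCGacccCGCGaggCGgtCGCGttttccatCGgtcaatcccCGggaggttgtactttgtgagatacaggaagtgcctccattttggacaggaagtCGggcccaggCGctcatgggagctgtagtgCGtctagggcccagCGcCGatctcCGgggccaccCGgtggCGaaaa
Olfr212, chr6:116506266-116506565, plus strand: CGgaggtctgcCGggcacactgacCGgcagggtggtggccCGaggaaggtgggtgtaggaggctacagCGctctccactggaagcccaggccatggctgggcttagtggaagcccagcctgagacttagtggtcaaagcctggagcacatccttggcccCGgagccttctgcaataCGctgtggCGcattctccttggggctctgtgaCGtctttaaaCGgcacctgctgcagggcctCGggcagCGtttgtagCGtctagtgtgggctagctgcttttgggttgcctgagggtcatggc
Olfr750, chr14:51071393-51071692, minus strand: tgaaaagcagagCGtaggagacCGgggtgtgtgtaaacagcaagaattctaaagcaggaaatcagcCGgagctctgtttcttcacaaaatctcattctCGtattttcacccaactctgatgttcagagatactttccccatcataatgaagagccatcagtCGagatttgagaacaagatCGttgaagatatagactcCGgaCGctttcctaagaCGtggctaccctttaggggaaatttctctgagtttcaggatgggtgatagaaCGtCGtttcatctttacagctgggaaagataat
Olfr506, chr7:108612059-108612358, plus strand: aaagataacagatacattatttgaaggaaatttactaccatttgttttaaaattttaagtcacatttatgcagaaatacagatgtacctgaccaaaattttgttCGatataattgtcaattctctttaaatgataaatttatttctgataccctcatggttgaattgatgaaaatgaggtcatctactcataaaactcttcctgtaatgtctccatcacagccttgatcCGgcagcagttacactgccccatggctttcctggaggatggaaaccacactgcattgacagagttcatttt
Olfr322, chr11:58665311-58665610, plus strand: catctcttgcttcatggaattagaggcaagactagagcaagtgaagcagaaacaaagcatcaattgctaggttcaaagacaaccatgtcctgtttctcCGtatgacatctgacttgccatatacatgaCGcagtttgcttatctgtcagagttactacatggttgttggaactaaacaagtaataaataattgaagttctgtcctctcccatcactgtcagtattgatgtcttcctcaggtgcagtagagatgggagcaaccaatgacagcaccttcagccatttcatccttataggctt
Vmn1r204, chr13:22555951-22556250, plus strand: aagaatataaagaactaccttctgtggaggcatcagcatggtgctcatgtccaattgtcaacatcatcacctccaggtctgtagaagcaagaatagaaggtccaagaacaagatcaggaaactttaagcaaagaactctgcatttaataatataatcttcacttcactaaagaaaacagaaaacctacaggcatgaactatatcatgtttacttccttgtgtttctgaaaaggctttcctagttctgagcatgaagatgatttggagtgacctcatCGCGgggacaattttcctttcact

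The Vmn2r29 window held 23 CGs, of which 17 were compared, and averaged 8.59% in A129-2 (15310 reads) against 11.7% in AOS-14 (9898 reads). Olfr212 held 13 CGs, of which 4 were compared, at 22.4% in A129-2 (79 reads) against 41.6% in AOS-14 (85 reads). Olfr750 held 11 CGs, of which 6 were compared, at 10.7% in A129-2 (1219 reads) against 16.2% in AOS-14 (1658 reads). These were the only receptor windows with 10 or more CGs, against 43.5% of all windows. The 1 compared CpG of the Olfr506 window was methylated in 22 of 35 reads in A129-2 (62.9%) and 60 of 73 reads in AOS-14 (82.2%). The remaining windows with a compared CpG were those of Olfr215 (9.03% in A129-2, 16.5% in AOS-14), Olfr655 (16.2% in A129-2, 18.2% in AOS-14) and Olfr1396 (12.5% in A129-2, 21.2% in AOS-14). All 7 were lower in A129-2. The windows of Olfr322 and Vmn1r204 hold 2 CGs each and no compared CpG, so the values given for those genes further below come from their surroundings.

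The letters of the receptor windows differ from those of all windows in further ways. TATAAA, the core of a TATA box, was found on either strand in 39.7% of receptor windows and 13.6% of all windows. TAATTA, a core bound by homeodomain factors such as Lhx2, was found in 16.6% of receptor windows and 5.29% of all windows, and copies of these motifs can share letters at their ends. CCCNNGGG, the core bound by Ebf factors, was found in 4.15% of receptor windows and 13.7% of all windows. By family it was in 19.7% of Vmn2r windows, 3.08% of Olfr windows and 0.485% of Vmn1r windows. These are counts of letters in a fixed window and not of bound sites. For receptor windows placed by an ATG, they may not be counts in promoters.

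Both lines had intermediate or low methylation near receptor genes, and A129-2 was lower. The mean level over the 5851 CpGs was 14.9% ± 0.0637 in A129-2 and 26.2% ± 0.0632 in AOS-14 (counting SE), a difference of -11.2 percentage points and a ratio of 0.570. The counting SE covers the sampling of reads only, and the SD over CpGs was 13.8 points in A129-2 and 20.6 points in AOS-14. The median CpG had 12.5% in A129-2 and 23.4% in AOS-14. Levels under 10% were found at 41.6% of receptor CpGs in A129-2 and 27.4% in AOS-14. A level of at least 50% was reached by 145 CpGs in A129-2 and 848 in AOS-14, and by 128 of them in both. Across the CpGs, which share library and neighbourhood and are not replicates, Pearson's r between the lines was 0.774, and across the other autosomal CpGs 0.846.

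**Figure D1:**
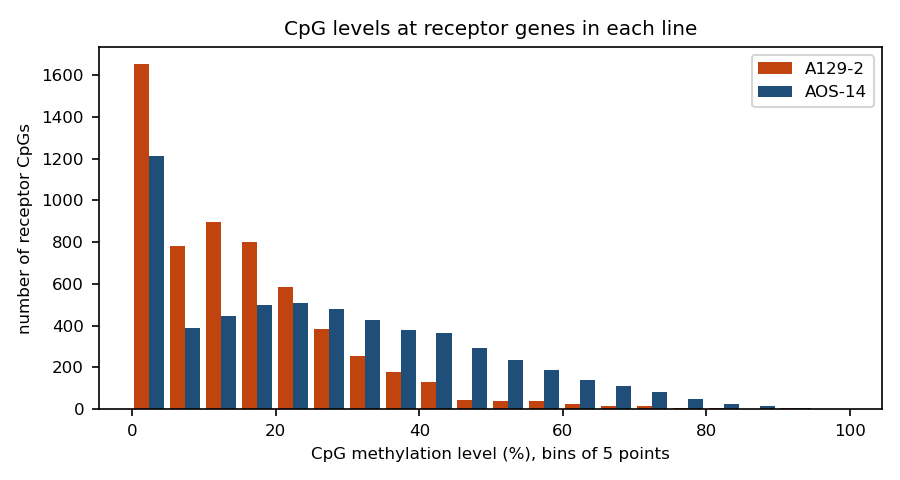
Number of receptor CpGs (of 5851) by methylation level in bins of 5 points, A129-2 in orange and AOS-14 in blue. The lowest bin holds 1653 CpGs in A129-2 and 1215 in AOS-14, and AOS-14 has more CpGs in each bin between 25% and 95%.

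Fewer reads covered the listed receptor CpGs than those elsewhere. Among all listed receptor CpGs the median was 17 reads in A129-2 and 27 in AOS-14, against 27 in A129-2 and 34 in AOS-14 over all listed autosomal CpGs. At the 5851 compared CpGs the median was 88 reads in A129-2 and 114 in AOS-14, above the 79 in A129-2 and 97 in AOS-14 of other compared autosomal CpGs. The median ratio of A129-2 to AOS-14 reads at a CpG was 0.759 at receptor CpGs and 0.806 at the other autosomal CpGs. Of receptor CpGs that 10 or more reads covered, 0.785% in A129-2 and 5.09% in AOS-14 were absent from the other library's table. Elsewhere on the autosomes these shares were 0.467% in A129-2 and 2.41% in AOS-14. mm10 is a C57BL/6 sequence, and the part that alignment of 129Sv reads has in these values was not tested. Without the CpGs whose read ratio lay outside the central 95%, the mean difference was -11.5 points.

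Receptor CpGs were more methylated than the rest of the autosomes in both lines. The 991705 other autosomal CpGs averaged 9.31% in A129-2 and 14.7% in AOS-14, with a ratio of 0.635. Many of those CpGs lie close to genes, where CpG islands are common, so CpGs were also set side by side by their distance from other genes. Receptor CpGs over 2 kb from any gene outside these families (4346) had 17.4% in A129-2 and 30.8% in AOS-14. Other autosomal CpGs over 10 kb from any gene (119231) had 17.6% in A129-2 and 30.4% in AOS-14, and those over 2 kb from any gene (174623) had 17.1% in A129-2 and 28.9% in AOS-14. On this footing the receptor regions had levels close to those of intergenic sequence in either line. The ratios of A129-2 to AOS-14 were 0.565 for the receptor CpGs, 0.579 over 10 kb from genes and 0.590 over 2 kb. No test of these differences can be made with 1 library per line.

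The receptor CpGs close to other genes were low. The 1505 CpGs within 2 kb of a gene outside the families had 7.77% in A129-2 and 12.8% in AOS-14, close to the 7.66% in A129-2 and 11.6% in AOS-14 of all other autosomal CpGs within 2 kb of a gene. The neighbour with most of them was Zfp993, a zinc finger gene of chromosome 4, with 110 receptor CpGs at 2.87% in A129-2 against 3.83% in AOS-14. Stx3, a syntaxin gene on chromosome 19, had 52 such CpGs at 4.28% in A129-2 against 3.15% in AOS-14. Ndufa10, a subunit of respiratory complex I, had 40 at 1.83% in A129-2 against 2.03% in AOS-14. At Stx3, AOS-14 was the lower line.

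CpGs in CCGG were more methylated than the rest. They made up 42.7% of receptor CpGs and 33.2% of other autosomal CpGs, but over 2 kb from other genes the shares were 47.4% of receptor CpGs and 48.6% of the others. The 2499 receptor CpGs in CCGG had 21.2% in A129-2 and 34.3% in AOS-14, with a ratio of 0.618. The 3352 receptor CpGs outside CCGG had 10.27% in A129-2 and 20.2% in AOS-14, with a ratio of 0.510. Other autosomal CpGs in CCGG had 18.8% in A129-2 and 27.7% in AOS-14, and those outside CCGG had 4.60% in A129-2 and 8.20% in AOS-14. Receptor CpGs were thus the higher ones in either sequence context, where distance from other genes was not matched.

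The families differed little from each other once neighbouring genes were set aside. The 2942 Olfr CpGs averaged 16.4% ± 0.0924 in A129-2 and 28.7% ± 0.0934 in AOS-14 (counting SE). The 950 Vmn1r CpGs averaged 16.3% ± 0.174 in A129-2 and 29.6% ± 0.171 in AOS-14. The 1955 Vmn2r CpGs averaged 12.1% ± 0.0989 in A129-2 and 20.8% ± 0.0950 in AOS-14. The 23 Taar CpGs averaged 15.9% ± 1.17 in A129-2 and 29.5% ± 1.16 in AOS-14. Of the 4 families, Vmn2r stood lowest in both lines. Over 2 kb from other genes, however, Vmn2r had 16.2% in A129-2 against 28.2% in AOS-14 over 1200 CpGs, Olfr 18.2% in A129-2 and 32.2% in AOS-14, and Vmn1r 17.1% in A129-2 and 31.0% in AOS-14. CpGs in reach of 2 families numbered 19 and were counted in each.

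Grouped by family and chromosome, each of the 40 groups with any compared CpG was lower in A129-2. Of the 30 groups with at least 20 CpGs, 27 stood above the other CpGs of their chromosome, in A129-2 and in AOS-14 alike. Those other CpGs were taken at any distance from genes. Set side by side over 2 kb from other genes, the receptor CpGs stood higher on 14 of 19 chromosomes in each line. On chromosome 7 they were lower, at 15.9% in A129-2 and 27.5% in AOS-14 against 17.2% in A129-2 and 30.1% in AOS-14. The largest Olfr group, with 377 genes on chromosome 2, had 17.9% in A129-2 against 32.9% in AOS-14 over 508 CpGs, and the rest of the chromosome had 8.72% in A129-2 and 13.3% in AOS-14. Olfr on chromosome 4 had 24.1% in A129-2 against 36.7% in AOS-14 over 75 CpGs. Among groups of at least 20 CpGs, the highest in AOS-14 were Vmn2r on chromosome 3 (26.9% in A129-2, 42.8% in AOS-14, 71 CpGs) and Vmn2r on chromosome 19 (19.97% in A129-2, 42.4% in AOS-14, 25 CpGs). Among the same groups the smallest ratio of A129-2 to AOS-14 was that of Vmn1r on chromosome 17, at 0.457 (16.2% in A129-2, 35.5% in AOS-14, 52 CpGs). The largest was that of Olfr on chromosome 5, at 0.700.

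The 3 groups below their chromosome were Olfr on chromosome 5 and Vmn2r on chromosomes 4 and 13. Vmn2r on chromosome 4 had 4.96% in A129-2 against 9.12% in AOS-14 over 532 CpGs, and 89.7% of these lay within 2 kb of other genes. The 55 CpGs away from other genes had 11.7% in A129-2 and 21.9% in AOS-14. Vmn2r on chromosome 13 had 6.87% in A129-2 against 10.64% in AOS-14 over 230 CpGs. Only 18.3% of those lay within 2 kb of another gene, and the other 188 CpGs still had 7.62% in A129-2 and 12.1% in AOS-14. This group was thus low also over 2 kb from other genes. Olfr on chromosome 5 had 8.08% in A129-2 and 11.5% in AOS-14 at 38 CpGs, 20 of them within 2 kb of other genes, and the other 18 had 4.84% in A129-2 and 7.56% in AOS-14.

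**Figure D2:**
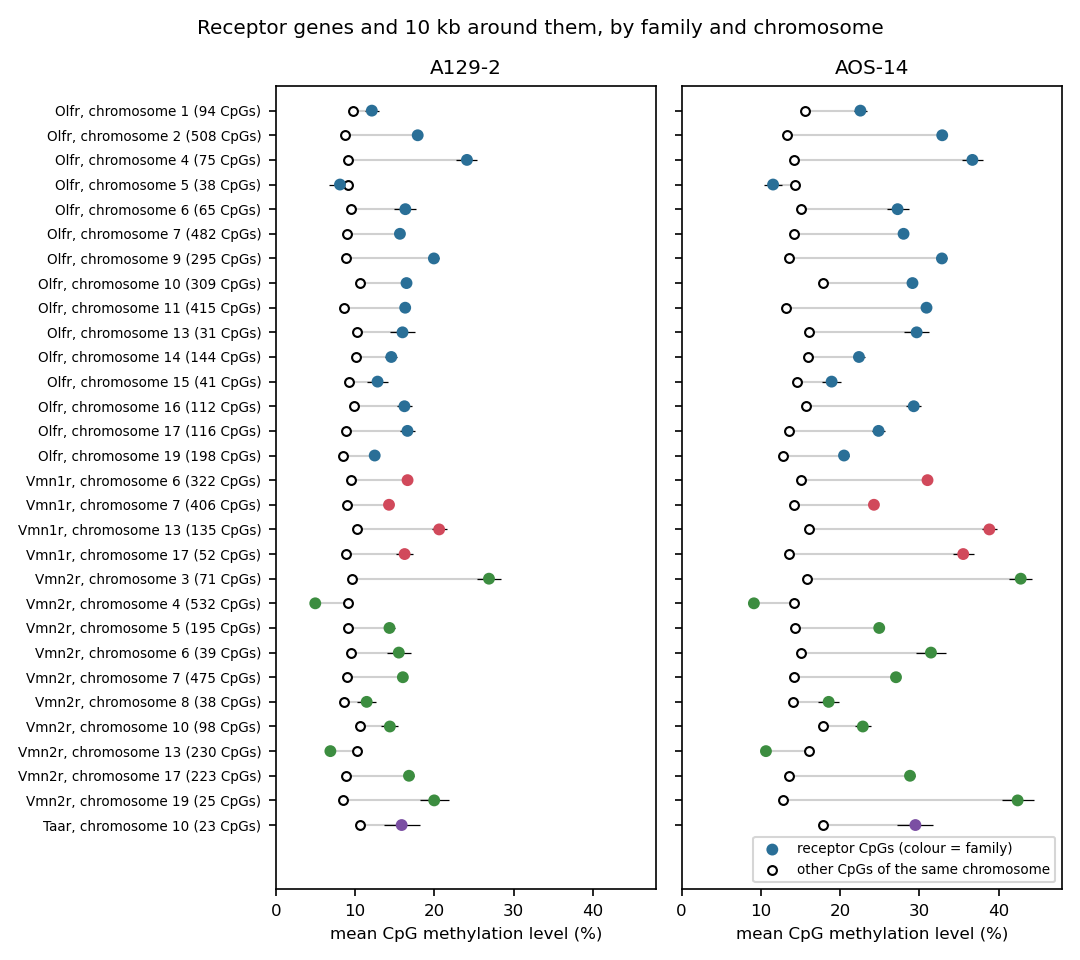
Mean CpG level (%) of each family and chromosome group with at least 20 CpGs, A129-2 on the left and AOS-14 on the right, with bars of the 95% counting interval. Filled points are receptor CpGs, coloured by family, and open points the other CpGs of the same chromosome, at any distance from genes. In each line 27 of the 30 filled points lie to the right of their open point.

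Runs of receptor genes with gaps of at most 500 kb formed 108 clusters, of which 50 had at least 20 compared CpGs. These 50 hold 1919 genes and 5607 of the CpGs. All 50 were lower in A129-2, with ratios between 0.367 and 0.728 and a median ratio of 0.567. Their levels ran between 3.62% and 28.8% in A129-2, with a median of 16.1%, and between 6.41% and 54.5% in AOS-14, with a median of 27.8%. Across the clusters the SD was 5.39 points in A129-2 and 9.94 points in AOS-14, far above the counting SE of single clusters, which was at most 1.27 points. The order of the clusters was alike in the lines, with a Pearson r of 0.945 across the 50 clusters, which share the libraries.

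The cluster with the highest level in both lines was a short one on chromosome 11, between Olfr1379-ps1 and Olfr1374-ps1, with 8 genes and 24 CpGs at 28.8% in A129-2 against 54.5% in AOS-14. Next in AOS-14 stood Olfr164 to Olfr171 on chromosome 16, at 25.7% in A129-2 against 47.7% in AOS-14 over 26 CpGs. Olfr24 to Olfr18 on chromosome 9 had 23.6% in A129-2 against 43.0% in AOS-14 over 112 CpGs. The largest cluster, Olfr987 to Olfr1274 on chromosome 2, holds 293 genes over 5.07 Mb but only 311 compared CpGs, and it had 17.4% in A129-2 and 30.5% in AOS-14. Another cluster of that chromosome, Olfr1275 to Olfr1319-ps1, had 19.7% in A129-2 against 41.4% in AOS-14 over 103 CpGs. It thus stood above the largest cluster in both lines, and by more in AOS-14.

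By their level in AOS-14 the lowest clusters were Olfr465-ps1 to Vmn2r-ps109 on chromosome 13, at 4.62% in A129-2 against 6.41% in AOS-14 over 196 CpGs, and Vmn2r-ps15 to Vmn2r-ps16 on chromosome 4, at 4.94% in A129-2 against 8.62% in AOS-14 over 470 CpGs. In the chromosome 4 cluster 90.2% of CpGs lay within 2 kb of other genes, and in the chromosome 13 cluster 21.4% did. The cluster of Vmn2r-ps18 to Vmn2r-ps20 on chromosome 4 was the lowest in A129-2 and had the smallest ratio, 0.367, with 3.62% in A129-2 against 9.86% in AOS-14 over 53 CpGs that all lay within 2 kb of other genes.

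**Figure D3:**
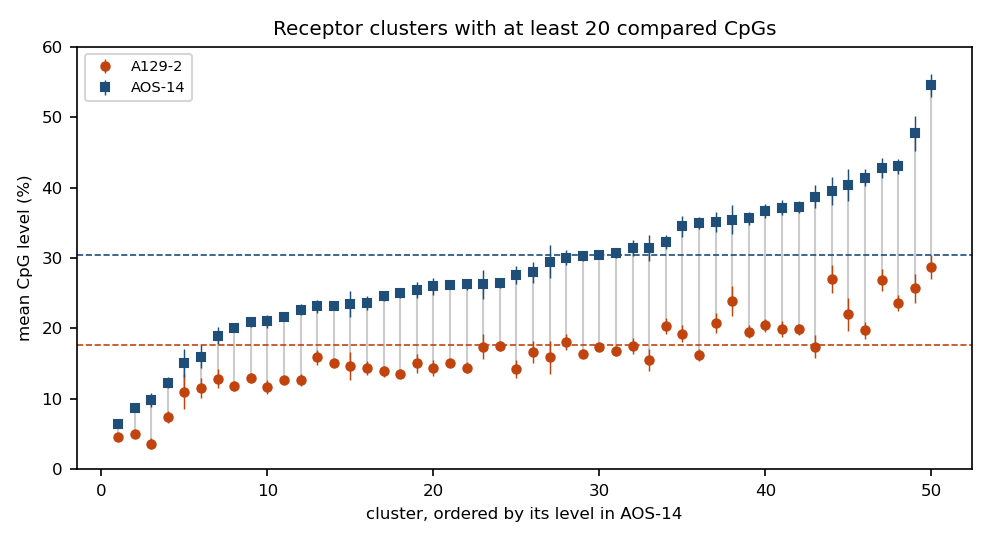
Mean CpG level (%) of the 50 clusters with at least 20 compared CpGs, ordered by their level in AOS-14, with A129-2 as orange circles, AOS-14 as blue squares and bars of the 95% counting interval. Dashed lines mark other autosomal CpGs over 10 kb from any gene (17.6% in A129-2, 30.4% in AOS-14), and each cluster has its A129-2 point below its AOS-14 point.

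Levels inside receptor genes were close to those of their flanks. Away from other genes, the 795 CpGs inside a receptor gene had 17.5% in A129-2 and 30.8% in AOS-14, and the 3551 CpGs in the flanks had 17.4% in A129-2 and 30.8% in AOS-14. By distance, the 624 CpGs within 2 kb outside a gene had 13.6% in A129-2 and 24.6% in AOS-14. This was the lowest class in both lines. Those at 2 to 5 kb had 19.7% in A129-2 and 34.4% in AOS-14, and those at 5 to 10 kb had 17.5% in A129-2 and 31.1% in AOS-14. The lines kept ratios between 0.555 and 0.574 in these classes. For the genes whose strand is known, CpGs upstream of the start averaged 17.4% in A129-2 and 31.0% in AOS-14 (859 CpGs), and CpGs downstream of the end 16.8% in A129-2 and 30.8% in AOS-14 (1162 CpGs). The gene table gives no exons, so CpGs inside a gene were not divided into exonic and intronic ones.

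**Figure D4:**
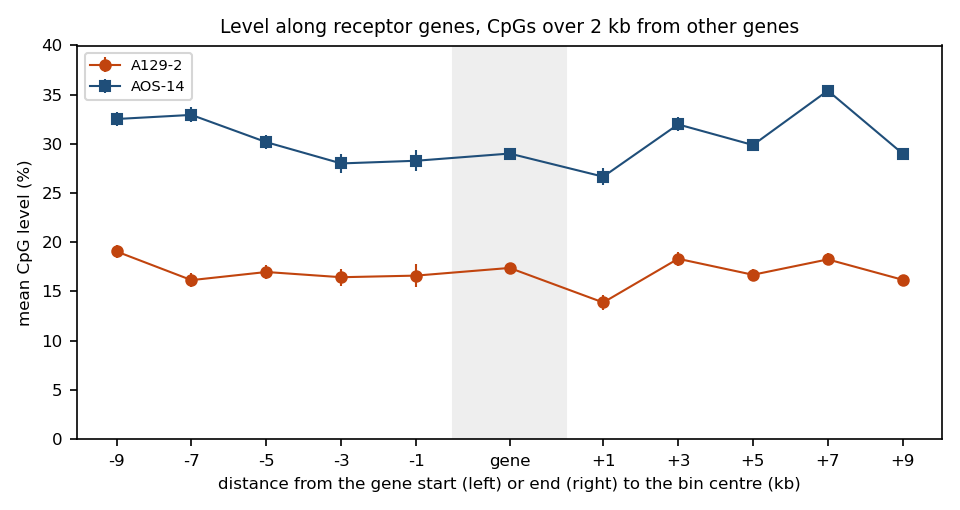
Mean CpG level (%) in bins of 2 kb upstream of the start, inside (grey) and downstream of the end of receptor genes of known strand, for CpGs over 2 kb from other genes, with A129-2 as orange circles, AOS-14 as blue squares and bars of the 95% counting interval. A129-2 stays between 13.9% and 19.1% and AOS-14 between 26.7% and 35.4%, with no minimum at the gene start.

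Single receptor CpGs were tested with Fisher's exact test on methylated and unmethylated reads, with Benjamini-Hochberg adjustment over all 1030368 CpGs. Calls required an adjusted p below 0.05 together with a gap of 25 points or more. Of the 5851 receptor CpGs, 678 (11.6%) were called lower in A129-2 and 7 higher. Over all compared CpGs, 4.08% were called lower and 0.0297% higher. Among receptor CpGs over 2 kb from other genes 14.04% were called lower, and among other autosomal CpGs over 10 kb from any gene 12.9%. The share called was 13.2% for Olfr, 13.7% for Vmn1r, 8.29% for Vmn2r and 8.70% for Taar.

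A call of lower needs a level of at least 25% in AOS-14, so CpGs were also set side by side at like levels of AOS-14. Where AOS-14 had 40% to 50%, the 656 receptor CpGs averaged 23.2% in A129-2 and 44.5% in AOS-14, and the 54730 other autosomal CpGs 25.1% in A129-2 and 44.4% in AOS-14. Where it had 50% to 60%, 423 receptor CpGs averaged 28.2% in A129-2 and 54.5% in AOS-14, and other autosomal CpGs 30.4% in A129-2 and 54.1% in AOS-14. At 70% to 80%, receptor CpGs averaged 40.5% in A129-2 and 73.8% in AOS-14, and other autosomal CpGs 40.6% in A129-2 and 73.95% in AOS-14. The receptor CpGs were slightly lower in A129-2 than the others in the middle bins and level with them at 70% to 80%. In the 41 receptor CpGs of 80% to 90% A129-2 kept 58.2%, against 50.5% at other autosomal CpGs of that bin. Since AOS-14 defined the bins, its counting error enters each of them.

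Of the 7 CpGs called higher in A129-2, named here because of their values, 5 lay nearest to a Vmn2r gene. So did 1947 of all 5851 receptor CpGs. The CpG inside the pseudogene Vmn2r-ps23 (chromosome 5, position 109603229) was methylated in 129 of 180 reads in A129-2 (71.7%) and 97 of 260 in AOS-14 (37.3%), with an adjusted p of 7.60e-11 in the exact test. The CpG inside Vmn2r29 (chromosome 7, position 7277810), outside the promoter window printed above, was methylated in 27 of 82 reads in A129-2 (32.9%) and 8 of 182 in AOS-14 (4.40%). The others were at Vmn2r56 (39.4% in A129-2, 5.26% in AOS-14, there from 19 reads), Vmn2r-ps90 (55.9% in A129-2, 18.8% in AOS-14) and Vmn2r-ps126 (44.0% in A129-2, 7.81% in AOS-14). The last 2 of the 7 were at Olfr891.

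Regions were tested on reads summed over fixed windows of 1 kb with at least 5 compared CpGs. Of 366 receptor windows, 51 (13.9%) were called lower in A129-2 and 1 higher in Fisher's exact test, Benjamini-Hochberg adjusted over 51142 windows. Over all windows 5.04% were called lower and 0.0137% higher. Without the minimum size, 278 receptor windows were lower and 8 higher in mean level by adjusted p alone, against 55.1% and 1.14% of all windows. Summed reads ran the same way in the 278 and in 6 of the 8. Of windows with at least 25% in AOS-14, 25.8% of 198 receptor windows and 15.5% of 16264 other windows were called lower. The 51 windows averaged 20.6% in A129-2 (11.6 to 32.6) and 52.3% in AOS-14 (40.4 to 67.7). In 48 of them each CpG was lower in A129-2. They lay on 13 chromosomes, with 11 of 73 windows inside a receptor gene (15.1%) and 40 of 293 outside (13.7%), and 40 were over 10 kb from any gene of another kind. By nearest gene they divide into 32 of 201 Olfr windows, 7 of 64 Vmn1r windows and 12 of 101 Vmn2r windows. The number of A129-2 reads per AOS-14 read fell outside the central 95% of all windows (0.372 to 1.79) in 9 of the 51 and in 38 of the 366.

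The window with the largest difference lay 2.79 kb from Olfr54 (chr11:51024162-51024215, 6 CpGs), at 15.5% in A129-2 (3628 reads) against 63.7% in AOS-14 (3293 reads). The window 9.42 kb from Vmn2r13 (chr5:109146210-109146650, 10 CpGs) had 16.9% in A129-2 (351 reads) against 64.8% in AOS-14 (1682 reads), and its read ratio of 0.209 was outside the central 95%. The window 6.41 kb from Vmn1r204 (chr13:22549318-22549787, 16 CpGs) had 18.6% in A129-2 and 65.2% in AOS-14. Next came a window 3.17 kb from the pseudogene Olfr408-ps1 (chr11:74302247-74302709, 15 CpGs), at 17.1% in A129-2 against 61.1% in AOS-14, and one 7.48 kb from Olfr322 (chr11:58674026-58674868, 24 CpGs), at 15.1% in A129-2 against 57.1% in AOS-14. A129-2 was the lower line at each CpG of all 5. None of the 5 lies inside a receptor gene or within 9 kb of another gene.

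The 5 windows hold CpGs whose spacing recurs elsewhere in the compared CpGs. A recurrent run is 5 successive compared CpGs, no step longer than 60 bp, whose steps occur at 3 or more places. It took in 6 of 6 CpGs at Olfr54, 5 of 10 at Vmn2r13, 12 of 16 at Vmn1r204, 12 of 15 at Olfr408-ps1 and 22 of 24 at Olfr322. Such runs held 35.8% of receptor CpGs and 48.6% of other autosomal CpGs. The runs were not compared with annotated repeats. Reads per CpG stood at percentile 98.4 of all windows at Olfr54, 97.4 at Olfr408-ps1, 99.5 at Olfr322, 93.1 at Vmn1r204 and 41.7 at Vmn2r13, and the part of multicopy sequence was not tested. Without them, 28 of 205 receptor windows were called lower. How the authors treated reads with several positions is not given in the sources used here, and its part in these values was not tested.

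The window higher in A129-2 lay 8.58 kb from Olfr891 (chr9:38171159-38171296). Its 5 CpGs had 59.8%, 39.7%, 30.3%, 14.05% and 58.0% in A129-2 and 28.7%, 16.9%, 5.91%, 2.46% and 13.3% in AOS-14. Each of the 5 was higher in A129-2, with 682 reads of A129-2 and 945 of AOS-14 in the window (adjusted p = 3.00e-31, Fisher's exact test). None of the 5 lay in a recurrent run. The other compared CpG of the gene, at 7430 bp from it, had 19.3% in A129-2 and 36.8% in AOS-14.

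By gene, 421 receptor genes had at least 5 compared CpGs inside or within 10 kb and were tested together with all other genes of the table. A total of 35 (8.31%) were called lower in A129-2 and 0 higher in Fisher's exact test, Benjamini-Hochberg adjusted over 32443 genes. Over all genes 1.29% were called lower and 0% higher. Of genes with at least 25% in AOS-14, 14.3% of 245 receptor genes and 5.22% of 7362 other genes were called lower. The median number of compared CpGs was 9 in tested receptor genes and 33 in other tested genes. Neither this number nor distance from other genes was matched, so these shares are not of like units. Without the minimum difference, 353 receptor genes were lower and 5 higher in mean level by adjusted p alone, against 86.1% and 0.761% of all genes. The test uses summed reads, and these ran the same way as the mean level in all 353 lower genes and in 4 of the 5 higher ones. With that condition, 85.9% of all genes were lower and 0.416% higher. It held for each called gene and window. The median receptor gene had 15.3% in A129-2 and 27.9% in AOS-14, and the median over all genes was 8.44% in A129-2 and 12.6% in AOS-14. The called genes averaged 20.3% in A129-2 (12.9 to 34.9) and 51.3% in AOS-14 (41.1 to 64.1). In 33 of them each CpG was lower in A129-2. Neighbouring genes share CpGs, so the 35 genes represent 32 separate stretches.

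The called genes were 27 of 245 tested Olfr genes, 6 of 77 Vmn1r genes and 2 of 96 Vmn2r genes, and 0 of 3 Taar genes. By gene type, 24 of 278 coding genes (8.63%) and 11 of 143 others (7.69%) were called. The median difference was -11.8 points in coding genes and -10.8 points in the others.

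**Figure D5:**
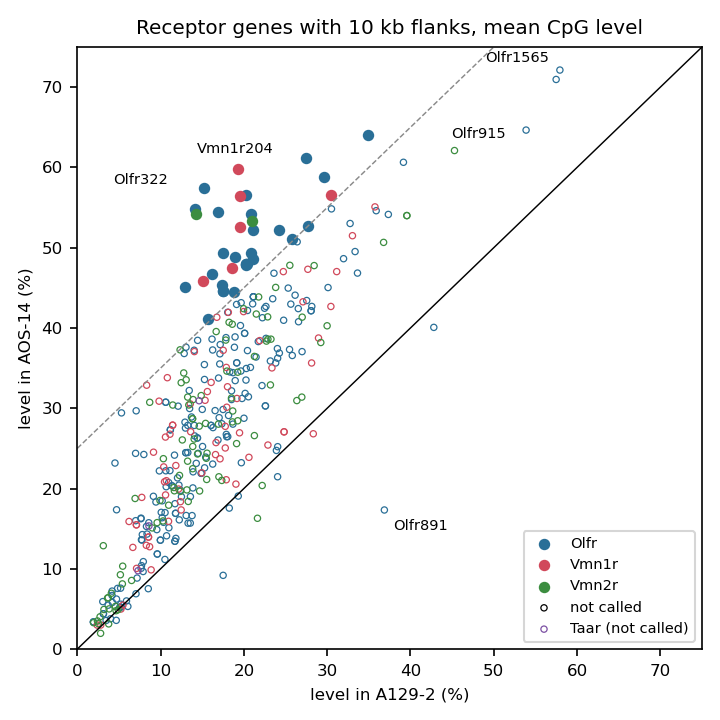
Mean CpG level (%) of the 421 tested receptor genes with 10 kb flanks, in A129-2 on the horizontal and in AOS-14 on the vertical axis, with the 35 genes called lower in A129-2 as filled points coloured by family. The solid line marks equal levels and the dashed line a difference of 25 points, and nearly all genes lie above the solid line.

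The 10 called genes with the largest differences had adjusted p-values of at most 1.19e-07 in Fisher's exact test, and each of their CpGs was lower in A129-2. Olfr322 (chr11:58665561-58666544) had 15.3% in A129-2 (4132 of 33327 reads) against 57.4% in AOS-14 (17952 of 30603 reads) over 25 CpGs. Olfr320 (chr11:58683875-58684795), at 14.2% in A129-2 against 54.8% in AOS-14, shares most of these CpGs, since the window described above lies between the genes. The exact 95% interval of the share of methylated reads at Olfr322 was 12.05 to 12.8% in A129-2 and 58.1 to 59.2% in AOS-14, for counting error only. Vmn1r204 (chr13:22556201-22557109) had 19.3% in A129-2 against 59.8% in AOS-14 over 21 CpGs.

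Vmn2r13 (chr5:109156068-109192107) had 14.3% in A129-2 against 54.1% in AOS-14 over 13 CpGs, but its depth was uneven, 620 reads of A129-2 against 2134 of AOS-14 (adjusted p = 1.04e-82, exact test). Olfr54 (chr11:51027004-51027945) had 16.9% in A129-2 against 54.4% in AOS-14 over 9 CpGs. Vmn1r86 (chr7:13101997-13102947) had 19.6% in A129-2 and 56.5% in AOS-14 on 71 reads of A129-2 and 190 of AOS-14, the thinnest of the 10. Olfr418 on chromosome 1 had 20.3% in A129-2 and 56.5% in AOS-14. Olfr18 on chromosome 9 had 27.4% in A129-2 and 61.2% in AOS-14. Olfr1095 on chromosome 2 had 20.9% in A129-2 and 54.3% in AOS-14, and Vmn1r233 on chromosome 17 had 19.6% in A129-2 and 52.5% in AOS-14. These genes stand on 8 chromosomes, and 3 of them on chromosome 11.

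A few methylated genes differed little between the lines. Among genes of at least 30% in AOS-14, the smallest difference was at Olfr58 on chromosome 9, with 42.8% in A129-2 (154 reads) against 40.1% in AOS-14 (191 reads) over 5 CpGs (adjusted p = 0.610, exact test). Vmn2r-ps114 had 27.0% in A129-2 and 31.4% in AOS-14, and Vmn2r60 26.4% in A129-2 and 31.0% in AOS-14, with adjusted p-values of 0.360 and 0.0999 in the exact test. Summed reads ran opposite to the mean level at Vmn2r60 (42.0% in A129-2, 37.7% in AOS-14) and at Olfr58 (46.8% in A129-2, 49.7% in AOS-14). Vmn1r1 had 28.1% in A129-2 and 35.6% in AOS-14, and Olfr269-ps1 22.6% in A129-2 and 30.3% in AOS-14. None of these 5 reached 25 points, and the first 3 did not pass the test at any size.

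Of the genes with at least 10 compared CpGs, Olfr915 on chromosome 9 had the highest level in AOS-14, with 53.9% in A129-2 (1105 reads) against 64.7% in AOS-14 (1786 reads) over 13 CpGs. Of its 13 CpGs 11 lie in a patch about 9 kb from the gene, where 9 of them had at least 50% in both lines, among them one at 81.9% in A129-2 against 92.5% in AOS-14. Vmn1r-ps25 on chromosome 6 had 30.4% in A129-2 and 56.6% in AOS-14 and was called lower. Olfr1505 on chromosome 19 had 30.5% in A129-2 and 54.8% in AOS-14, just short of 25 points.

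Chosen after their values were seen, Olfr1565 and Olfr1506 on chromosome 2 had the highest gene levels in A129-2. Olfr1565 had 57.9% in A129-2 (242 reads) against 72.1% in AOS-14 (336 reads), and Olfr1506 57.5% in A129-2 (279 reads) against 71.0% in AOS-14 (340 reads), over 7 CpGs each. Of these, 6 CpGs of one gene lie at the same distance from it, within 1 bp, as 6 CpGs of the other. The CpG at 8.83 kb had 86.4% in A129-2 and 88.6% in AOS-14 at Olfr1565, and 85.7% in A129-2 and 86.5% in AOS-14 at Olfr1506. The sites may be near-identical copies among which reads cannot be divided with certainty, so they should be read as 1 measurement. Another CpG chosen in this way, 3.43 kb from the pseudogene Olfr712-ps1, was methylated in 14 of 14 reads in A129-2 and 34 of 34 in AOS-14.

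The lowest genes by AOS-14 level, with at least 10 CpGs, were all in the vomeronasal families. Vmn2r-ps102 had 2.80% in A129-2 and 1.964% in AOS-14, Vmn1r4 2.38% in A129-2 and 2.998% in AOS-14, and Vmn2r-ps53 2.54% in A129-2 and 3.16% in AOS-14, and in these 3 each CpG lay within 2 kb of another gene. Vmn2r-ps109 had 3.77% in A129-2 (2044 reads) against 3.14% in AOS-14 (4991 reads), and Vmn2r-ps99 1.96% in A129-2 (2437 reads) against 3.29% in AOS-14 (5933 reads). Neither of this pair, both on chromosome 13, had a compared CpG within 2 kb of another gene, and A129-2 had 0.411 reads per AOS-14 read at Vmn2r-ps99 and 0.410 at Vmn2r-ps109.

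At an adjusted p under 0.05 without the minimum size, 4 genes were higher in A129-2 in both mean level and summed reads, and they are named here because of their values. Olfr891, which was also on the list of known receptors, had 36.9% in A129-2 against 17.3% in AOS-14 at its 6 CpGs (adjusted p = 3.23e-23, Fisher's exact test). Olfr46 on chromosome 7 had 17.5% in A129-2 and 9.19% in AOS-14, with 9 of 9 CpGs higher in A129-2. Olfr722 on chromosome 14 had 24.0% in A129-2 and 21.5% in AOS-14, with 22 of 31 CpGs higher. Vmn1r112 had 28.3% in A129-2 and 26.8% in AOS-14. The fifth gene with a higher mean in A129-2, Vmn2r-ps117, had 22.2% in A129-2 and 20.4% in AOS-14, but 9.22% of its reads were methylated in A129-2 and 12.4% in AOS-14, and 6 of 7 CpGs were lower in A129-2.

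Receptors with a known ligand or role were looked at one by one. Olfr891, described above, was on this list as well and was higher in A129-2 (36.9% in A129-2, 17.3% in AOS-14). Olfr73, a receptor for eugenol, had 20.2% in A129-2 and 37.7% in AOS-14 at 3 CpGs, too few for the test. Olfr78, which is expressed in the oxygen-sensing cells of the carotid body, had 7.99% in A129-2 against 24.2% in AOS-14 over 6 CpGs, each lower in A129-2 (adjusted p = 1.04e-27, exact test). Vmn2r116, the receptor of the male tear pheromone ESP1, had 19.3% in A129-2 and 28.4% in AOS-14, with 10 of 11 CpGs lower. Vmn2r1, a receptor of the subfamily that many basal vomeronasal neurons express in common, had 39.6% in A129-2 against 54.0% in AOS-14 over 14 CpGs, each lower in A129-2. Of this group Vmn2r1 was the most methylated in either line. Vmn2r2 shares these CpGs.

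Vmn1r85 and Vmn1r89, which respond to sulfated steroids, had 15.4% in A129-2 and 27.2% in AOS-14 (2 CpGs) and 14.95% in A129-2 and 21.95% in AOS-14 (7 CpGs). No compared CpG lay within 10 kb of the well-studied odorant receptor genes Olfr1507, Olfr17, Olfr151, Olfr160, Olfr16 and Olfr544, of Vmn2r26 or of Taar1. Nothing can be said of their methylation from these libraries.

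The Taar genes form 1 cluster on chromosome 10 with 23 compared CpGs near 8 of 16 genes. Taar9 had 14.6% in A129-2 (581 reads) against 30.9% in AOS-14 (959 reads) over 8 CpGs, each lower in A129-2 (adjusted p = 1.03e-08, exact test). Taar5, a receptor for trimethylamine, had 8.60% in A129-2 and 15.3% in AOS-14 with 6 of 8 CpGs lower (adjusted p = 0.0205, exact test), and its neighbour Taar6 had 7.29% in A129-2 and 9.76% in AOS-14. Taar2 and Taar3 share 4 CpGs at 23.1% in A129-2 against 30.001% in AOS-14. Taar4, a receptor for phenylethylamine, had 1 CpG at 6.67% in A129-2 against 26.7% in AOS-14, from 15 reads in each. Taar7f had 28.9% in A129-2 and 62.8% in AOS-14 and Taar8c 3.87% in A129-2 and 18.7% in AOS-14, at 3 CpGs each. All 8 genes had a lower mean in A129-2. Only Taar5, Taar6 and Taar9 had the 5 CpGs needed for the test, and 0 of these 3 were called.

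The other genes of olfactory and vomeronasal sensing had levels near those of all genes. Of 43 listed genes 32 were tested, and all 32 were lower in A129-2, 31 of them with an adjusted p below 0.05 (Fisher's exact test) and 0 by 25 points, where 86.1% of all genes passed the test in that direction and 1.29% were called. Their median was 7.85% in A129-2 and 10.97% in AOS-14, and that of all genes 8.44% in A129-2 and 12.6% in AOS-14. Rtp2, which helps receptors to the cell surface, had 13.95% in A129-2 and 34.9% in AOS-14, and Ano2, the chloride channel of olfactory cilia, 13.2% in A129-2 and 30.7% in AOS-14. Omp, the olfactory marker protein, had 13.8% in A129-2 and 23.8% in AOS-14. The G protein gene Gnal had 6.03% in A129-2 and 8.95% in AOS-14, and Adcy3, the cyclase it activates, 6.78% in A129-2 and 8.31% in AOS-14. The transcription factor gene Lhx2 had 6.47% in A129-2 and 7.36% in AOS-14, and Ebf1 12.25% in A129-2 and 18.5% in AOS-14. Trpc2, the channel of vomeronasal neurons, had 15.05% in A129-2 and 19.6% in AOS-14.

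Taste receptors, a like family in smaller clusters, had 266 compared CpGs at 11.9% in A129-2 against 17.8% in AOS-14, with a ratio of 0.665. Of 43 genes 7 were tested, and all 7 were lower in A129-2 with an adjusted p below 0.05 (Fisher's exact test), with 0 called, beside 86.1% and 1.29% of all genes. The bitter receptor gene Tas2r131 had 30.1% in A129-2 and 36.5% in AOS-14, and Tas2r144 had 9.79% in A129-2 and 26.8% in AOS-14. The mean over taste receptor CpGs was thus below that over the 5851 receptor CpGs in both lines, a difference that was not tested. Of the 266 taste receptor CpGs, 110 lay at 1 gene, Tas1r1, with 5.05% in A129-2 and 8.47% in AOS-14. Distance from other genes was not matched here, so the difference cannot be laid to the families.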

How the data were processed

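Bisulfite sequencing of genomic DNA was deposited as 1 table per line, A129-2 and AOS-14. Reads were aligned with BSMAP to mm10, per the submitters' processing notes, and no other step is given in the sources used here. The authors deposited, per CpG, the count of methylated reads, the count of all reads and their ratio as a fraction, per the file headers. Positions were matched between the tables, levels were recomputed as methylated over all reads, and a CpG was kept if 10 or more reads covered it in each library. The libraries held 153035567 reads at CpGs in A129-2 and 178315194 in AOS-14, and intervals and counting SEs cover counting error only. RefSeq gene positions and promoter windows are those of GRCm38.p6. A level is the mean over CpGs. Fisher's exact test, two-sided, was run on summed reads of all CpGs, 1 kb windows and genes with 10 kb flanks (at least 5 CpGs), with Benjamini-Hochberg adjustment over each whole table, and was tested on simulated data. Named genes were the 10 called with the largest difference, the 5 of at least 30% in AOS-14 with the smallest difference, the 5 highest and 5 lowest in AOS-14 with at least 10 CpGs, the 5 called windows with the largest differences each way, and a list of known receptors. Members, lists and tests were chosen with earlier results of these data known. With 1 library per line there was no replicate check. Python 3.11.15, numpy 2.4.6, pandas 2.3.3, scipy 1.17.1, numba 0.67.0 and matplotlib 3.10.9 were used.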

Additional observations from a re-analysis of the deposited data

Results flagged for a closer look

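Receptor genes on the sex chromosomes were outside the comparisons above, and the X-linked ones carried methylation above the level of other X-linked CpGs. The 25 compared CpGs near X-linked receptor genes averaged 21.96% in A129-2 and 36.7% in AOS-14, while the other X-linked CpGs averaged 13.2% in A129-2 and 22.4% in AOS-14. Those other CpGs were taken at any distance from genes, so distance from genes was not matched. The difference between the lines thus had the direction seen at the autosomal receptor genes.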

How the results depend on the processing

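No paired analysis was possible because each line had 1 library. In 16 settings A129-2 stayed lower on average, by -13.4 to -9.46 points. The mean difference, -11.2 points, was -9.57 inside genes only, -9.46 with 2 kb flanks, -10.2 with 50 kb flanks, -9.88 without CCGG, -13.4 away from other genes, -12.1 without -ps genes, -11.5 without uneven depth, -12.8 without recurrent runs, -12.1 weighted by reads, -12.4 over windows, -12.4 over genes and -12.0 without Vmn2r of chromosome 4, a setting chosen after seeing the data. Leaving out groups with over 10% of the CpGs gave no value, since none was that large. The counts moved as follows. With a minimum of 15 points, 1277 CpGs, 134 windows, 155 genes and 2 genes of olfactory and vomeronasal sensing were lower and 1 gene higher. With 40 points, 180 CpGs, 7 windows and 3 genes were lower, and 1 CpG and 0 windows higher. Inside genes only, 107 CpGs, 11 windows and 6 genes were lower, and 3 CpGs and 0 windows higher. With 2 kb flanks, 176 CpGs, 17 windows and 10 genes were lower, and 4 CpGs and 0 windows higher. With 50 kb flanks, 1510 CpGs, 113 windows and 83 genes were lower and 12 CpGs higher. Without CCGG, 385 CpGs and 27 windows were lower, and 4 CpGs and 0 windows higher. Without -ps genes, 451 CpGs and 30 windows were lower and 4 CpGs higher. With 5 reads per CpG, 12 CpGs were higher. Without recurrent runs, 28 windows were lower. With at least 3 CpGs, 95 windows and 54 genes were lower, and with at least 10, 15 windows and 16 genes, with 0 windows higher. Flank and minimum settings change the number of units tested. Other causes were not tested. No called gene, called window or family difference reversed. Weighting by reads changed the direction at some genes not called, as the summed reads of Vmn2r60 and Olfr58 above show. Of 273 recomputed values of called genes and windows, 259 kept their call, and of 317 of genes not called, 310 did. Of 56 family differences, 27 moved beyond counting error. What is seen is limited, with 1127 of 2059 genes having no compared CpG. With 5 reads per CpG, 6510 receptor CpGs were compared instead of 5851. The parts that depth, CpG content and library type have in this were not tested.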

Other observations

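The 15 compared CpGs near Y-linked receptor genes averaged 22.8% in A129-2 and 41.4% in AOS-14. Both lines are haploid, and 31095 other X-linked CpGs were compared in them as well. Where the reads placed on the Y came from was not tested, so these values may not be those of a Y chromosome.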
